A study of Homo sapiens with 26 samples.

Results

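The genes described are the protein-coding genes of chromosome 18 that start before 24.17 Mb (hg38) and carried at least 10 counts in at least 3 of the 26 libraries. They number 66 of the 58735 genes in the count table. A further 18 protein-coding genes of the interval fell under that count minimum, and 1 gene of the interval was left out by the rule. The interval had been chosen because its genes were lower in CF than in WT cells, so every CF against WT value of a member is a description and not a test. The name given to the set, proximal chromosome 18 up to 24.2 Mb, did not match the data: the lower level held for every fitted member up to the gap of 6.81 Mb without a member between ZNF519 and ROCK1, where the centromere lies, and for some of the members after it. The 50 members before that gap are called short arm members below, and the 16 after it long arm members.

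The study measured poly(A) RNA of 16HBE human bronchial epithelial cells on Transwell inserts, at 2 glucose concentrations and with 2 CFTR genotypes. The groups were CF cells, the line 16HBEge with DeltaF508 CFTR, for 7 days in high glucose (17.5 mM, 6 libraries); WT cells, the line 16HBE14o-, in high glucose (5 libraries); CF cells in normal glucose (5.5 mM, 6 libraries); WT cells in normal glucose (6 libraries); and WT cells labelled as not polarized, in normal glucose (3 libraries). Each library pooled 2 Transwells, and the labels do not say whether libraries came from separate cultures, so each p-value reflects only how far these libraries scatter, which may be technical. Each genotype was 1 cell line, so the CFTR allele and the line it stands in cannot be told apart, and gene counts do not show the allele.

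Each chromosome arm is a continuous stretch of DNA whose neighbouring genes have unrelated tasks, and the centromere joins both arms. The short arm of chromosome 18 carries genes of cell division (NDC80, CEP192, TYMS), of the actomyosin cortex that shapes epithelial cells (MYL12A, MYL12B) and of chromatin silencing (SMCHD1). The start of the long arm carries ROCK1, the kinase that drives phosphorylation of myosin light chains, NPC1, which exports cholesterol from lysosomes, and GATA6, a transcription factor of endoderm and lung.

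The promoters of 4 members described below are shown, and no result rests on their sequence. These are APCDD1, whose response to glucose differed between the lines, and MYL12A and MYL12B. The latter are neighbouring genes for near-identical myosin light chains that were both lower in CF cells. The last is RIOK3, the long arm member with the highest CF level relative to WT in normal glucose. The sequences are RefSeq's on GRCh38.p14, from 250 bases before to 50 bases after the start, 5′ to 3′, and capitals mark the GC box core GGGCGG, the CCAAT box, the E box core CACGTG and the TATA motif TATAAA, on either strand.

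APCDD1 (chr18:10454385-10454684, plus strand): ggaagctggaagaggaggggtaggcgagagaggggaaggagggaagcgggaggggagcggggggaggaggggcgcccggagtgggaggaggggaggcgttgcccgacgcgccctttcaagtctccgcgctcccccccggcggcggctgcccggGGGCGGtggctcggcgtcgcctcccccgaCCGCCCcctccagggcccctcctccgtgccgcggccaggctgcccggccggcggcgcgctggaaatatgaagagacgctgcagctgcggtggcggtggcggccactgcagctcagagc
MYL12A (chr18:3247232-3247531, plus strand): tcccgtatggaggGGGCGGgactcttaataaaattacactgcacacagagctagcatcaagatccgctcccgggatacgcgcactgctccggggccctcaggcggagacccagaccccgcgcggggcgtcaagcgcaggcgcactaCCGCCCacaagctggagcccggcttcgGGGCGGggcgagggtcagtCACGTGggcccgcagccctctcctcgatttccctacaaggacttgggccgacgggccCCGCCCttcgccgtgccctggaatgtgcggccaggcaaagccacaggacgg
MYL12B (chr18:3261883-3262182, plus strand): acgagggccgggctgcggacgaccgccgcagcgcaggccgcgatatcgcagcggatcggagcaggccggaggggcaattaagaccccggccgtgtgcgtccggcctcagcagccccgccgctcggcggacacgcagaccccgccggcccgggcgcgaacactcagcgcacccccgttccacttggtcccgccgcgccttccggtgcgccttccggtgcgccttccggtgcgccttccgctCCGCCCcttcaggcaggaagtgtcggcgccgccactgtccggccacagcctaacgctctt
RIOK3 (chr18:23453037-23453336, plus strand): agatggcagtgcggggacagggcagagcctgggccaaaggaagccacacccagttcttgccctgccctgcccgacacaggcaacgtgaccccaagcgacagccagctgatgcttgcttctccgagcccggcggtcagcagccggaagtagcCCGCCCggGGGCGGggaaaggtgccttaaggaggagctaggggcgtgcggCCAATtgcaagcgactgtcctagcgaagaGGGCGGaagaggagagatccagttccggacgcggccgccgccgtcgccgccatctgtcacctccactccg

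A window was found for 44 of the 50 short arm and 13 of the 16 long arm members, and for 27305 genes in all. GGGCGG stood in 70.5% of the short arm windows and 69.2% of the long arm windows, against 44.6% of all windows, and the median number of CpG dinucleotides was 33, 25 and 14. CCAAT was in 18.2% of the short arm windows, 46.2% of the long arm windows and 35.7% of all windows, and TATAAA in 2.27%, 15.4% and 12%. CACGTG was in 9.09%, 7.69% and 7.43%. The cyclic AMP response element TGACGTCA was in 9.09% of short arm windows, in none of the 13 long arm windows and in 1.98% of all windows. The short arm share is only 4 windows, those of THOC1, METTL4, NDC80 and CHMP1B. The windows of METTL4 (chr18:2571456-2571755) and NDC80 (chr18:2571307-2571606) overlap, so 1 site may be counted in both. The E2F-type motif TTTCGCGC was in none of the members' windows and in 0.546% of all windows. None of these motifs contains another, and each was searched on both strands. These are matches of letters and not binding sites. Members are protein-coding genes that passed a count minimum, while the 27305 windows were not so chosen, so the shares do not compare like sets. Whether the differences in motifs and CpG follow from that choice was not tested.

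Libraries held 14658319 to 20413839 counts. Libraries numbered 1 to 3 and those numbered 4 to 6 stood apart. Deviations of libraries from their group means were correlated between glucose levels. The mean r was 0.36 in CF and 0.348 in WT for differently numbered libraries of the same set. Over all differently numbered libraries, which include these same-set pairs, it was -0.0751 and -0.0724. The labels do not say what the numbers stand for. Values within each set are given for some results only. Lowest, median and highest values of a group pool both sets, so their range holds any gap between the sets. Of 10 airway epithelial markers, 9 averaged at least 1 CPM (counts scaled to library size) in every group; the list summed to 7006 to 8039 CPM in CF cells and 5908 to 6572 CPM in WT cells in high glucose, and to 7357 to 8084 CPM in CF cells and 6309 to 7351 CPM in WT cells in normal glucose. Of 6 fibroblast markers 1 reached a mean of 1 CPM, and the list summed to at most 29.5 CPM in CF libraries and 43.3 CPM in WT libraries. Of 4 endothelial markers 2 reached it, with sums of 32.5 to 64.2 CPM in CF libraries and 20.02 to 29.4 CPM in the WT libraries of the 4 CF and WT glucose groups; in the not polarized WT libraries they were 44.8 to 48.8 CPM. Of 5 immune markers 1 reached it, with sums of 1.01 to 8.75 CPM over all libraries, and none of the 4 markers of ciliated and secretory cells did in the 23 libraries other than the not polarized ones, with sums of at most 1.3 CPM. The mucin MUC5AC had no count in any library, and PDGFRA, a fibroblast marker, had none in WT libraries or in CF libraries in normal glucose. The part of these lists in the members' values was not tested. In bulk RNA, fewer cells of a type and less RNA per cell cannot be told apart.

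Along the chromosome, all 48 short arm members that could be fitted had a lower CF than WT level at both glucose concentrations, while the long arm members stood on both sides of 0. The median log2 fold change, CF over WT, of the 48 was -0.52 in high glucose and -0.47 in normal glucose, which are ratios of 0.697 and 0.724. For the 16 long arm members it was -0.024 and 0.057, and for the 110 protein-coding genes of chromosome 18 beyond the interval, with the same count minimum, it was 0.0044 and 0.061. Over all 16338 genes tested it was 0.0074 and 0.0040. Of the short arm members 41 had a Benjamini-Hochberg adjusted p under 0.05 for lower in CF at each glucose level, by edgeR's quasi-likelihood test, beside 10.6% of all genes in high and 13.0% in normal glucose. For higher there were 0, beside 9.35% of all genes in high and 11.4% in normal glucose. Of the 16 long arm members 3 were so called lower in high glucose (ROCK1, GREB1L and MIB1), and in normal glucose 1 lower (MIB1) and 1 higher (RIOK3). The shares of all genes beside them are the same. Over all members the counts for lower were 44 of 64 in high glucose, beside a background of 10.6% of all genes, and 42 of 64 in normal glucose, beside 13.0%. Every CF library lay below every WT library in 41 of the 64 in high glucose and 33 in normal glucose, beside 7.34% and 7.25% of all genes. Since the interval was chosen on this contrast, nothing is read from the counts. They include EMILIN2 and TUBB8P12, which reached 10 counts in no CF library and so entered through WT libraries, where they were higher. Over the 38 short arm members with a mean of at least 10 CPM, the median log2 fold changes were -0.52 in high and -0.47 in normal glucose.

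**Figure D1:**
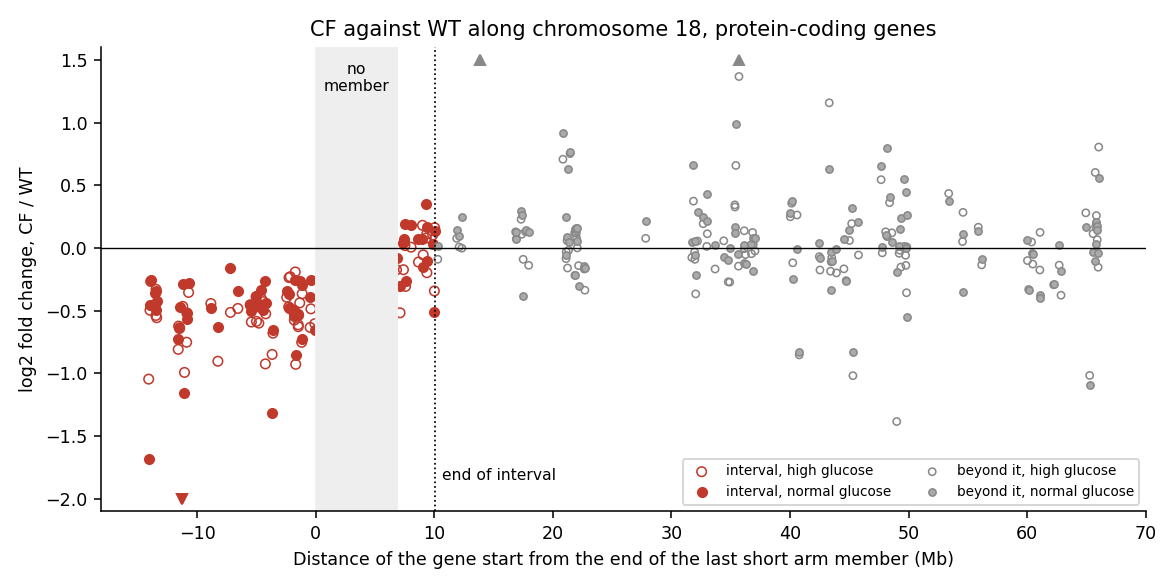
Log2 fold change, CF over WT, of each protein-coding gene of chromosome 18 (y axis) against the distance of its start from the end of the last short arm member in Mb (x axis), in high glucose (open) and normal glucose (filled), for members (red) and genes beyond the interval (grey); triangles mark values outside the axis. All 48 fitted short arm members lie below 0 at both glucose levels, while the 16 long arm members and the genes after them lie on both sides of it.

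The size of the difference changed little along the short arm. In consecutive groups of 10 members in order of position, the median log2 fold change was -0.55 in high glucose and -0.46 in normal glucose from TUBB8P12 to SMCHD1, -0.52 and -0.50 from EMILIN2 to PTPRM, -0.50 and -0.45 from RAB12 to VAPA, and -0.49 in both from APCDD1 to SPIRE1. The group from PSMG2 to GREB1L, which spans the gap, had -0.56 and -0.35. The next 10, from ESCO1 to RMC1, had 0.013 and 0.073, and the last 4 had -0.047 and -0.034. The first 10 genes beyond the interval had 0.076 and 0.13.

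Around the end of the interval, values above and below 0 stood on either side of it. Inside it, the last members were RMC1, NPC1, TTC39C, CABYR and OSBPL1A, with log2 fold changes, CF over WT, of 0.11, -0.20, 0.10, -0.34 and 0.16 in high glucose and 0.17, -0.10, 0.03, -0.51 and 0.14 in normal glucose. Outside it, IMPACT, SS18, TAF4B and KCTD1 had -0.09, 0.08, 0.01 and -0.0015 in high glucose and 0.01, 0.14, 0.09 and 0.25 in normal glucose. CDH2, the next gene, averaged 0.448 CPM in CF cells and had no count in WT cells in normal glucose.

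Taken per library, the short arm separated the lines completely. For each library, the median over 45 short arm members of log2(CPM over the mean CPM of WT cells in normal glucose) was -0.535 to -0.450 in CF cells and -0.0068 to 0.0716 in WT cells in high glucose, and -0.535 to -0.367 in CF cells and -0.0421 to 0.0349 in WT cells in normal glucose. In the not polarized WT libraries it was 0.0775 to 0.102. The same median over 15 long arm members was -0.0438 to 0.0368 in CF cells and -0.0560 to 0.0864 in WT cells in high glucose, and -0.0528 to 0.113 in CF cells and -0.0475 to 0.0424 in WT cells in normal glucose, so these groups overlapped. The 45 short arm members together took 3489.7 ± 149 CPM in CF cells and 5060.3 ± 156 CPM in WT cells in high glucose (SD, n = 6 and 5), and 3643 ± 145 CPM in CF cells and 5054 ± 96.5 CPM in WT cells in normal glucose (SD, n = 6 each).

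**Figure D2:**
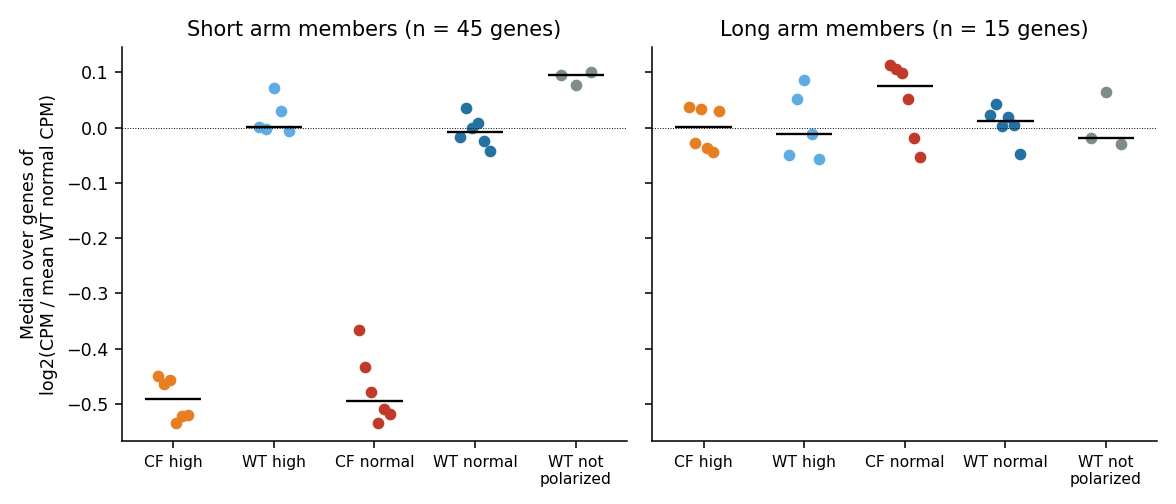
Median over genes of log2(CPM over the mean CPM of WT cells in normal glucose) in each library (points) for 45 short arm members (left) and 15 long arm members (right), by group; bars are group medians. CF libraries lie between -0.535 and -0.367 for the short arm and overlap the WT libraries for the long arm.

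Among short arm members for chromosome segregation and replication, NDC80 (ENSG00000080986, chr18:2571511-2616635, plus strand), which ties kinetochores to spindle microtubules, had 63.2, 78.7 and 86.3 CPM in CF cells in high glucose, against 126, 130.0, 134, 101 and 101 CPM in the 5 WT libraries in high glucose; where 3 values stand for a group of 6 libraries, here and below, they are its lowest, median and highest. In normal glucose it had 63.1, 77.5 and 112 CPM in CF cells, against 118, 125 and 143 CPM in WT cells. The sets stood apart there: CF libraries 1 to 3 had 112, 89.6 and 91.0 CPM, and CF libraries 4 to 6 had 65.2, 65.5 and 63.1 CPM. No CF library reached any WT library at the same glucose level, and the log2 fold change was -0.62 ± 0.13 in high and -0.64 ± 0.12 in normal glucose (± SE). TYMS (ENSG00000176890, chr18:657604-673578, plus strand), thymidylate synthase, had 97.6, 107 and 111 CPM in CF cells in high glucose, against 152, 159, 151, 149.9 and 153 CPM in the 5 WT libraries in high glucose. Its normal glucose levels were 108, 115 and 119 CPM in CF cells, against 148, 161 and 173 CPM in WT cells, and the lines did not overlap at either level. ENOSF1, an enzyme gene that overlaps TYMS on the opposite strand, averaged 74.4 ± 16.1 CPM in CF and 93.3 ± 16.9 CPM in WT cells in high glucose (SD, n = 6 and 5). The lines overlapped there only between number sets and were apart within each set. In normal glucose ENOSF1 overlapped within libraries 1 to 3. CF library 2, at 90.4 CPM, lay above WT libraries 2 and 3, at 89.3 and 88.2 CPM. ENOSF1 was not called at either level by edgeR's quasi-likelihood test (adjusted p = 0.137 in high and 0.0896 in normal glucose). No source at hand states whether counting used strand, so reads of TYMS and ENOSF1 where they overlap cannot be told apart.

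The nuclear pore and Rag-pathway subunit SEH1L (ENSG00000085415, chr18:12947133-12987536, plus strand) had 49.0, 55.5 and 64.0 CPM in CF cells in high glucose, against 93.6, 92.2, 99.9, 94.1 and 90.3 CPM in the 5 WT libraries in high glucose. In normal glucose SEH1L had 48.9, 56.2 and 62.2 CPM in CF cells, against 89.4, 92.6 and 97.0 CPM in WT cells. This was a clear separation, with log2 fold changes of -0.75 ± 0.07 and -0.72 ± 0.07. SMCHD1, a chromatin silencer needed for X inactivation, had log2 fold changes of -0.64 ± 0.06 in high and -0.47 ± 0.06 in normal glucose. METTL4, an adenine methyltransferase, had -0.81 ± 0.12 and -0.73 ± 0.11. For THOC1, of the mRNA export complex THO, the difference was smaller, at -0.27 ± 0.07 and -0.26 ± 0.06. Its CF and WT libraries overlapped in high glucose, though only between number sets.

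The myosin regulatory light chains lie side by side. MYL12A (ENSG00000101608, chr18:3247481-3256236, plus strand) had 166, 184 and 216 CPM in CF cells in high glucose, against 295, 342, 332, 323 and 287 CPM in the 5 WT libraries in high glucose. Its levels in normal glucose were 173, 187 and 213 CPM in CF cells, against 254, 284 and 309.9 CPM in WT cells, so the lines did not overlap. MYL12B (ENSG00000118680, chr18:3261479-3278431, plus strand) had 259, 325 and 372 CPM in CF cells in high glucose, against 487, 535, 515, 394 and 376 CPM in the 5 WT libraries in high glucose, and 267, 309.8 and 382 CPM in CF cells, against 381, 443 and 569 CPM in WT cells in normal glucose, where 1 CF library lay just above the lowest WT library. That pair came from different number sets, and within each set the lines were apart. The log2 fold changes of MYL12A and MYL12B were -0.75 ± 0.08 and -0.52 ± 0.13 in high glucose and -0.57 ± 0.08 and -0.51 ± 0.12 in normal glucose. Per length, MYL12B was the most abundant of the members, at 166 FPKM in CF and 237 FPKM in WT cells in high glucose. Of the 50-base windows of its transcripts 5.86% occur in transcripts of other genes, MYL12A among them, as do 3.94% of those of MYL12A.

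**Figure D3:**
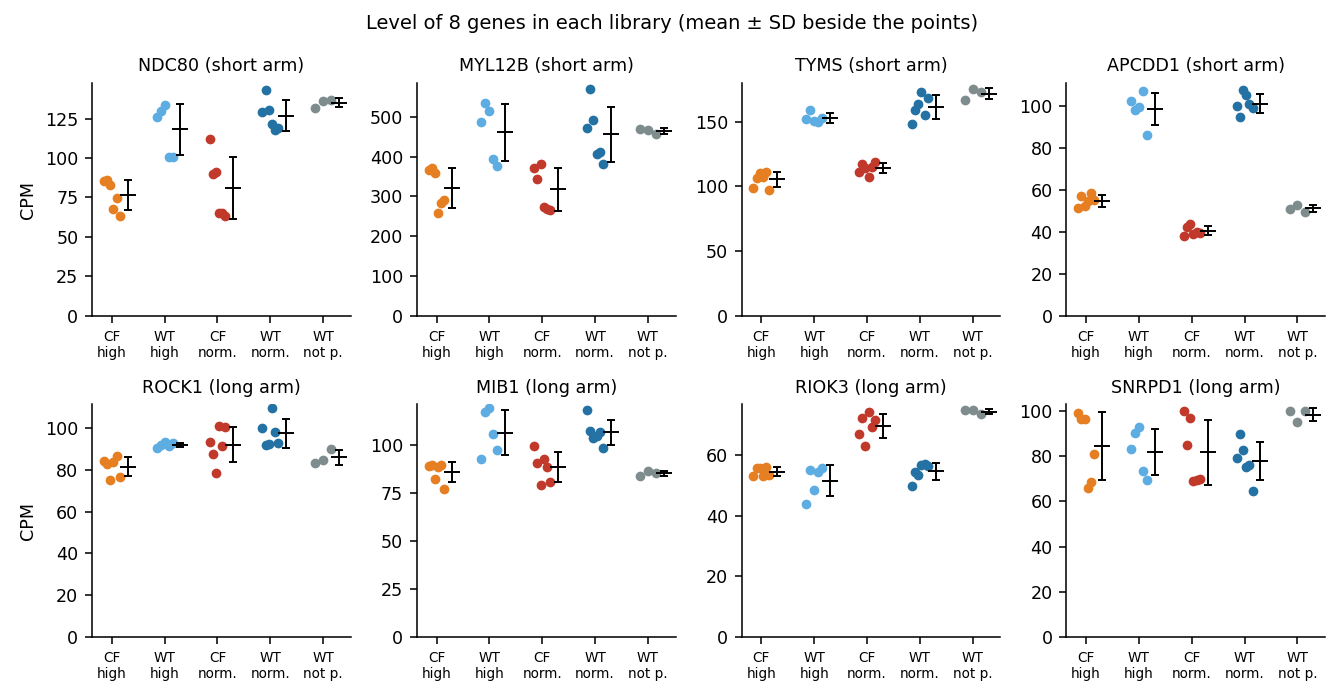
CPM of 8 members in each library (points) by group, with the mean ± SD beside the points and axes from 0. NDC80, MYL12B, TYMS and APCDD1 on the short arm are lower in CF than in WT at both glucose levels, while ROCK1, MIB1, RIOK3 and SNRPD1 on the long arm overlap or differ less.

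Members of the cytoskeleton, membrane traffic, signalling and protein turnover were below WT as well. SPIRE1 (ENSG00000134278, chr18:12446512-12658134, minus strand), an actin nucleator, had 12, 13.0 and 14.2 CPM in CF cells in high glucose, against 22.4, 19.8, 24.5, 27.8 and 29.2 CPM in the 5 WT libraries in high glucose. In normal glucose the values were 10.2, 11.5 and 15 CPM in CF cells, against 17.3, 21.3 and 25.6 CPM in WT cells. CF libraries stayed under all WT libraries, and the log2 fold changes were -0.93 ± 0.11 and -0.85 ± 0.11. NAPG, a gamma-SNAP of vesicle fusion, had log2 fold changes of -0.68 ± 0.07 and -0.65 ± 0.07, and VAPA, which tethers the endoplasmic reticulum to other membranes, -0.52 ± 0.09 and -0.44 ± 0.09. YES1, a kinase of the SRC family, had -0.56 ± 0.08 and -0.42 ± 0.08. The phosphatase PTPN2, which dampens JAK-STAT signalling, had -0.44 ± 0.06 and -0.26 ± 0.06. USP14, a deubiquitinase of the proteasome, had -0.50 ± 0.06 and -0.45 ± 0.05, AFG3L2, a protease of the inner mitochondrial membrane, -0.58 ± 0.07 and -0.49 ± 0.06, and TGIF1, a repressor of SMAD signalling, -0.35 ± 0.07 and -0.28 ± 0.07. In each pair of values the first is for high glucose and the second for normal glucose.

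APCDD1 (ENSG00000154856, chr18:10454628-10489948, plus strand), an inhibitor of WNT signalling at the cell surface, had the lowest normal glucose level relative to WT among members with a mean of at least 10 CPM. It had 51.2, 55.0 and 58.3 CPM in CF cells in high glucose, against 102, 98.2, 99.4, 107 and 86.3 CPM in the 5 WT libraries in high glucose. Normal glucose gave 38.3, 39.7 and 43.7 CPM in CF cells, against 94.5, 100.4 and 107 CPM in WT cells. The log2 fold changes, CF over WT, were -0.85 ± 0.06 and -1.32 ± 0.06, the lines being apart in every library. Over the 38 short arm members with a mean of at least 10 CPM, the log2 fold changes ranged from -0.93 to -0.23 in high glucose and from -1.32 to -0.26 in normal glucose.

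Other short arm members span many tasks, and all those named next were below 0 at both levels. LAMA1, the laminin alpha 1 chain of basement membranes, had log2 fold changes, high glucose first, of -0.51 and -0.16, and TWSG1, a secreted binder of bone morphogenetic proteins, -0.60 and -0.45. LPIN2, a phosphatidate phosphatase, had -0.47 and -0.29, and IMPA2, an inositol monophosphatase, -0.23 and -0.48. CEP192, a centrosome scaffold, had -0.36 and -0.30. PPP4R1, a regulatory subunit of protein phosphatase 4, had -0.40 and -0.33. PSMG2, a chaperone of proteasome assembly, had -0.61 and -0.53, and CHMP1B, of the ESCRT-III complex, -0.47 and -0.48. RAB12, a small GTPase of vesicle traffic, had -0.45 and -0.46, and its relative RAB31 -0.43 and -0.49. GNAL, a G protein alpha subunit, had -0.39 and -0.35, and ZBTB14, a zinc finger transcription factor, -0.44 and -0.48. In FPKM, a level per length, short arm members had a median of 8.64 over all libraries, between 0.0706 and 203, and long arm members a median of 6.02, between 0.252 and 23.5.

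Some low members differed by more but rest on few reads. EMILIN2, an extracellular matrix glycoprotein gene, carried 0 to 2 counts in CF and 7 to 18 in WT libraries in high glucose, and 0 to 2 in CF and 10 to 20 in WT libraries in normal glucose. The beta-tubulin gene TUBB8P12 had 0.230, 0.329 and 0.580 CPM in CF cells in high glucose, against 0.704, 0.856, 0.712, 0.771 and 0.596 CPM in the 5 WT libraries in high glucose, and 56.7% of its 50-base windows are shared with TUBB8 and other tubulin genes, so its counts are uncertain. MYOM1, which encodes a sarcomere protein, had 0.773, 1.34 and 1.72 CPM in CF cells, against 2.81, 1.91, 2.63, 2.93 and 2.98 CPM in WT cells in high glucose. EMILIN2, TUBB8P12, ARHGAP28 and LDLRAD4 reached 10 counts in no CF library, so they entered the set through WT libraries alone. ARHGAP28 and LDLRAD4 were too low to be fitted across the 23 libraries that are not the not polarized ones, at means of at most 0.527 and 0.456 CPM in any group.

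On the long arm, 8 of the 16 members were at or above their WT level in CF cells at both glucose concentrations, beside 38.7% of all genes: SNRPD1, ABHD3, GATA6, CABLES1, RIOK3, RMC1, TTC39C and OSBPL1A. The cohesin acetyltransferase ESCO1 and the DNA end resection factor RBBP8 were above 0 in normal glucose alone, and the other 6, ROCK1, GREB1L, MIB1, TMEM241, NPC1 and CABYR, were below 0 at both, beside 36.3% of all genes. No short arm member was at or above 0 at both levels under any alternative run. At 1 level LDLRAD4 was in the runs without a low-count filter, as was TXNDC2 without WT normal glucose library 4. Both are near the floor: in normal glucose LDLRAD4 averaged 0.387 CPM in CF and 0.306 CPM in WT cells, and TXNDC2 0.369 and 0.443 CPM. The 8 became 6 in libraries 1 to 3, 4 in libraries 4 to 6 (ABHD3, CABLES1, RMC1 and OSBPL1A) and 5 without WT high glucose library 5 (CABLES1, RIOK3, RMC1, TTC39C and OSBPL1A), so CABLES1, RMC1 and OSBPL1A were the ones present in each of these.

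RIOK3 (ENSG00000101782, chr18:23452823-23486603, plus strand), an atypical kinase linked to ribosome maturation, had 53.0, 54.5 and 56.0 CPM in CF cells in high glucose, against 43.9, 55.0, 48.4, 54.4 and 55.8 CPM in the 5 WT libraries in high glucose, where the groups overlapped. In normal glucose it had 63.0, 70.3 and 74.2 CPM in CF cells, against 49.6, 55.4 and 56.9 CPM in WT cells, with every CF library above every WT library and a log2 fold change of 0.35 ± 0.06, against 0.08 ± 0.06 in high glucose. SNRPD1 (ENSG00000167088, chr18:21612267-21633524, plus strand), a core protein of spliceosomal snRNPs, had 66.0, 88.5 and 99.0 CPM in CF cells in high glucose, against 83.3, 90.3, 92.7, 73.4 and 69.5 CPM in the 5 WT libraries in high glucose. Its normal glucose values were 68.9, 77.4 and 100.1 CPM in CF cells, against 64.7, 77.6 and 89.9 CPM in WT cells, overlapping throughout. GATA6 averaged 3.84 ± 0.458 CPM in CF and 3.82 ± 0.701 CPM in WT cells in high glucose (SD, n = 6 and 5), and 3.22 ± 0.80 CPM in CF and 2.86 ± 0.443 CPM in WT cells in normal glucose (SD, n = 6 each), with overlap at both. ABHD3, a phospholipase, had log2 fold changes of 0.02 ± 0.11 and 0.19 ± 0.10. CABLES1, a linker of cyclin-dependent kinases, had log2 fold changes of 0.18 ± 0.07 and 0.07 ± 0.06, and OSBPL1A, an oxysterol-binding protein, 0.16 ± 0.07 and 0.14 ± 0.07. RMC1, of the complex that activates RAB7, and NPC1 overlap on opposite strands and had 0.11 and -0.20 in high glucose and 0.17 and -0.10 in normal glucose.

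Of the 6 long arm members below 0 at both levels, ROCK1 and GREB1L were the first after the gap. ROCK1 (ENSG00000067900, chr18:20946906-21111851, minus strand) had 75.3, 83.0 and 86.4 CPM in CF cells in high glucose, against 90.2, 91.9, 93.1, 91.4 and 92.6 CPM in the 5 WT libraries in high glucose. In normal glucose ROCK1 had 78.4, 92.1 and 101 CPM in CF cells, against 91.8, 95.3 and 109.5 CPM in WT cells, so the lines were apart in high glucose and overlapped in normal glucose; its log2 fold changes were -0.17 ± 0.06 and -0.08 ± 0.06. Of its 50-base windows 11.6% are shared with other genes, mostly the pseudogene ROCK1P1. MIB1, an E3 ligase for Notch ligands, had 77.4, 89.0 and 89.9 CPM in CF cells in high glucose, against 92.9, 118, 119, 106 and 97.3 CPM in the 5 WT libraries in high glucose, and 79.2, 89.5 and 99.8 CPM in CF cells, against 98.6, 106 and 118 CPM in WT cells in normal glucose. CF and WT libraries of MIB1 were apart in high glucose. In normal glucose 1 CF library lay among the WT libraries, above a WT library of the other number set, and within each set the lines were apart. The log2 fold changes of MIB1 were -0.31 ± 0.07 and -0.26 ± 0.07. GREB1L, a factor of kidney and inner ear development, averaged 18 ± 5.19 CPM in CF and 25.7 ± 3.32 CPM in WT cells in high glucose (SD, n = 6 and 5), with overlap only between number sets. Libraries 1 to 3 there had 15.3, 12.6 and 12.4 CPM in CF and 25.3, 21.1 and 24.3 CPM in WT cells. Libraries 4 to 6 had 22.8, 23.9 and 21.1 CPM in CF and 29.6 and 28.1 CPM in WT cells. In normal glucose too, every CF library of GREB1L was below every WT library of its own set. Its log2 fold changes were -0.52 ± 0.17 in high and -0.30 ± 0.16 in normal glucose, the value in high glucose being like the short arm median of -0.52.

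Glucose itself is a contrast the choice of interval did not use. In CF cells high glucose changed 10 of the 64 members tested, beside 8.41% of all genes: THOC1, SMCHD1, ANKRD12, PTPN2, FAM210A, RNMT and RIOK3 fell (7, beside 4.14%), and RAB31, APCDD1 and TMEM241 rose (3, beside 4.27%). By the unadjusted p, 17 of the 64 were under 0.05, beside 21.4% of all genes. All adjusted p-values here are from edgeR's quasi-likelihood test over all genes. With the replicate number as a block, 16 members were called, the same 10 and MTCL1, NAPG, IMPA2, ROCK1, GREB1L and RBBP8, beside 15.7% of all genes in that fit. With a term for the set of numbers 17 were called, beside 17.2%. Within libraries 1 to 3 there were 10 calls, beside 8.44%, of which 6 were among the first 10 (THOC1, PTPN2, FAM210A and TMEM241 were not called), and within libraries 4 to 6 there were 15, beside 13.8%, which held all 10.

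FAM210A, a mitochondrial protein, fell by the most of the 10: it had 46.9, 51.1 and 64.7 CPM in CF cells in high glucose and 65.0, 71.5 and 76.2 CPM in CF cells in normal glucose, with a log2 fold change, high over normal, of -0.40 ± 0.08 (adjusted p = 0.00335). All high glucose libraries were below all normal glucose ones. RNMT, the mRNA cap methyltransferase that lies next to FAM210A on the opposite strand, fell with it, with a log2 fold change of -0.28 ± 0.05 (adjusted p = 2.97e-04). The spans of FAM210A and RNMT overlap only at their ends, over chr18:13726660-13726663, and shared reads were not tested. ANKRD12, a co-repressor binding protein, had 74.8, 78.4 and 88.1 CPM in high and 86.8, 106 and 110.0 CPM in normal glucose in CF cells, a log2 fold change of -0.36 ± 0.06 (adjusted p = 4.01e-04), and the groups overlapped slightly, though only between number sets. RIOK3 fell too, at -0.35 ± 0.06 (adjusted p = 3.63e-04), as did SMCHD1 at -0.29 ± 0.06 (adjusted p = 0.0015). RAB31, a small GTPase of endosome traffic, rose, with 79.0, 85 and 93.8 CPM in high and 65.5, 67.7 and 78.5 CPM in normal glucose and a log2 fold change of 0.29 ± 0.06 (adjusted p = 0.00289). TMEM241, a membrane protein gene, rose by 0.29 ± 0.08 (adjusted p = 0.0252).

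The weaker calls depended on single libraries. PTPN2, at -0.20 ± 0.06 (adjusted p = 0.0347), was not called without any 1 of CF high glucose libraries 1, 4, 5 and 6 and CF normal glucose libraries 2 and 6, at adjusted p of 0.0502 to 0.0731. TMEM241 was not called without any 1 of CF high glucose libraries 2 and 4 and CF normal glucose libraries 4, 5 and 6. THOC1, at -0.24 ± 0.06 (adjusted p = 0.0161), kept its call without each library in turn, but had an adjusted p of 0.062 without the filter on low counts and 0.136 within libraries 1 to 3. The FAM210A call was lost within libraries 1 to 3 (adjusted p = 0.0565).

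In WT cells high glucose changed 1 of the 64 members, beside 2.96% of all genes (1.47% lower, 1.49% higher). This was ANKRD12, with 105, 133, 127, 118 and 114 CPM in WT cells in high glucose and 129.8, 143 and 145 CPM in WT cells in normal glucose, a log2 fold change of -0.23 ± 0.06 (adjusted p = 0.0493). The call was lost without any 1 of WT high glucose libraries 1, 3, 4 and 5 and all 6 WT normal glucose libraries, at adjusted p of 0.0626 to 0.174. At an unadjusted p under 0.05 there were 16, beside 15.1% of all genes. DESeq2 called 4, beside 5.6%, and the fit with the replicate block called 5 (ANKRD12, THOC1, RAB31, NAPG and NPC1), beside 6.68%. THOC1 and RAB31 had log2 fold changes of -0.23 ± 0.07 and 0.22 ± 0.06 in WT cells (adjusted p = 0.0525 and 0.0511), beside -0.24 and 0.29 in CF cells.

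**Figure D4:**
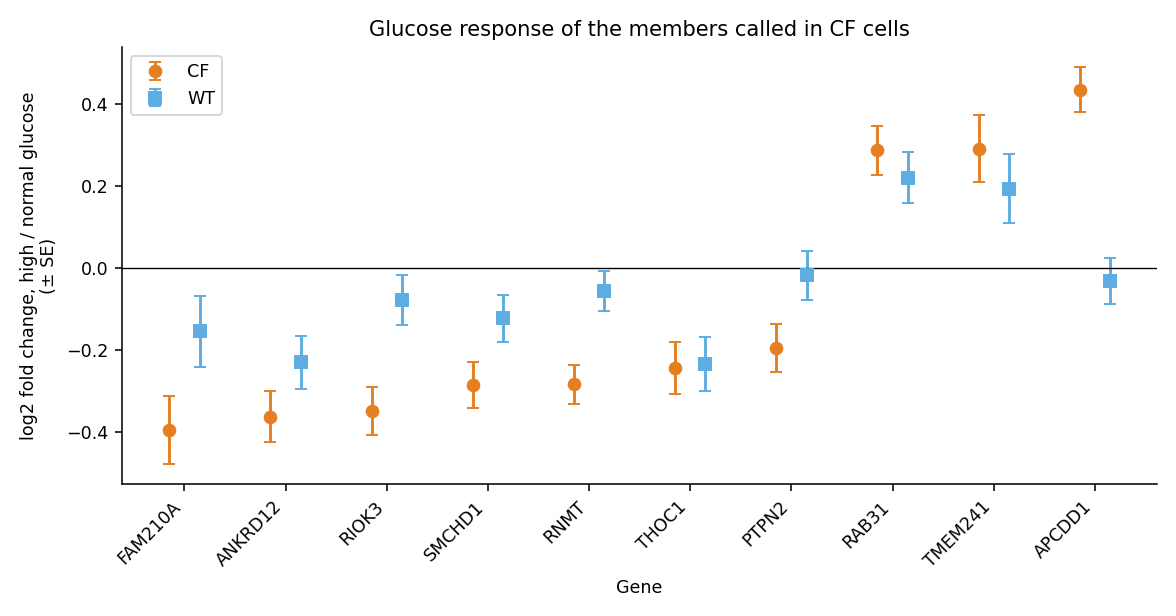
Log2 fold change, high over normal glucose, with its standard error, in CF (circles) and WT cells (squares) for the 10 members called in CF cells. APCDD1 rose by 0.44 in CF cells and was at -0.03 in WT cells, while THOC1 and RAB31 had like values in both lines.

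The difference of the glucose response between the lines was called for 1 of the 64 members, APCDD1, beside 0.0367% of all genes (6 of 16338; 0.0122% higher and 0.0245% lower). APCDD1 rose in CF cells, with 51.2, 55.0 and 58.3 CPM in high and 38.3, 39.7 and 43.7 CPM in normal glucose and no overlap; the log2 fold change was 0.44 ± 0.06 (adjusted p = 1.63e-05). In WT cells it was -0.03 ± 0.06 (adjusted p = 0.872), with 102, 98.2, 99.4, 107 and 86.3 CPM in high and 94.5, 100.4 and 107 CPM in normal glucose. The difference of the responses, CF minus WT, was 0.47 ± 0.08 on the log2 scale (adjusted p = 0.0176), with adjusted p of 3.6e-05 to 0.321 over the alternatives. It was 0.37 within libraries 1 to 3 (adjusted p = 0.321) and 0.55 within libraries 4 to 6 (adjusted p = 0.000896). The call was lost without any 1 of CF high glucose libraries 2 and 5, WT high glucose libraries 2 and 3, CF normal glucose libraries 4, 5 and 6, and WT normal glucose library 3, where the difference was 0.44 to 0.46 and the adjusted p 0.0506 to 0.0597. Other members called in CF cells had differences of -0.27 ± 0.09 (RIOK3, adjusted p = 0.362), -0.23 ± 0.07 (RNMT, adjusted p = 0.306) and -0.24 ± 0.12 (FAM210A, adjusted p = 0.753), which did not pass. At an unadjusted p under 0.05 there were 4 members, beside 6.79% of all genes, a share near the background.

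Between WT cells in normal glucose and WT cells labelled not polarized, 31 of 65 members differed, beside 50% of all genes, so the share of members was near the background. Of these 17 were lower in the normal glucose libraries, beside 24%, and 14 higher, beside 26%; 36 had an unadjusted p under 0.05, beside 56% of all genes. Of the short arm members 23 of 49 were called, and of the long arm members 8 of 16. The labels give both groups normal glucose and the same growth protocol, and do not say how the not polarized cells were kept from polarizing.

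APCDD1 was higher in the WT normal glucose libraries, with 94.5, 100.4 and 107 CPM against 51.0, 53.0 and 49.4 CPM in the 3 not polarized libraries, a log2 fold change of 1.00 ± 0.06 (adjusted p = 2.34e-08). MTCL1, a microtubule crosslinker of polarized epithelium, was also higher, with 197, 235 and 269 CPM against 130.0, 127 and 127 CPM, a log2 fold change of 0.87 ± 0.10 (adjusted p = 1.28e-05). TUBB6, a beta-tubulin, had a log2 fold change of 0.73 ± 0.06 (adjusted p = 1.87e-07). CLUL1, a clusterin-like gene, was at 1.22, 1.57 and 2.22 CPM against 0.112, 0.428 and 0.124 CPM, a log2 fold change of 2.89 ± 0.42 (adjusted p = 6.49e-05) that rests on 2 to 8 counts per not polarized library and became 3.79 without not polarized library 2. NDUFV2, a complex I subunit, had 3.87, 6.12 and 7.79 CPM against 1.85, 2.84 and 2.17 CPM, a log2 fold change of 1.37 ± 0.23 (adjusted p = 2.39e-04); 27.0% of its windows are shared with other annotated transcripts, so its level is uncertain.

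PTPRM, a receptor phosphatase of cell contacts, was lower in the WT normal glucose libraries, with 59.2, 73.1 and 76.7 CPM against 147, 145 and 154 CPM in not polarized libraries, a log2 fold change of -1.07 ± 0.08 (adjusted p = 1.99e-07). SPIRE1 was lower too, with 17.3, 21.3 and 25.6 CPM against 43.6, 43.8 and 44.4 CPM, a log2 fold change of -1.02 ± 0.12 (adjusted p = 6.93e-06). TUBB8P12 and TMEM200C, a transmembrane protein gene, had -1.28 ± 0.32 and -0.62 ± 0.19 (adjusted p = 0.00475 and 0.014), and TMEM200C was not called without not polarized library 1 (adjusted p = 0.0869). On the long arm GATA6, RMC1, RIOK3 and SNRPD1 were lower and ESCO1, MIB1, NPC1 and ROCK1 higher, from -0.57 for GATA6 to 0.57 for ESCO1. The GATA6 call was lost with the replicate block (adjusted p = 0.0643) and without not polarized library 2 (adjusted p = 0.0601). The ROCK1 call was lost without WT normal glucose library 1 or 4 or any not polarized library, at adjusted p of 0.0503 to 0.137. MYL12A, MYL12B, NDC80 and TYMS did not pass, at -0.07 ± 0.07, -0.01 ± 0.11, -0.07 ± 0.07 and -0.07 ± 0.06.

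**Figure D5:**
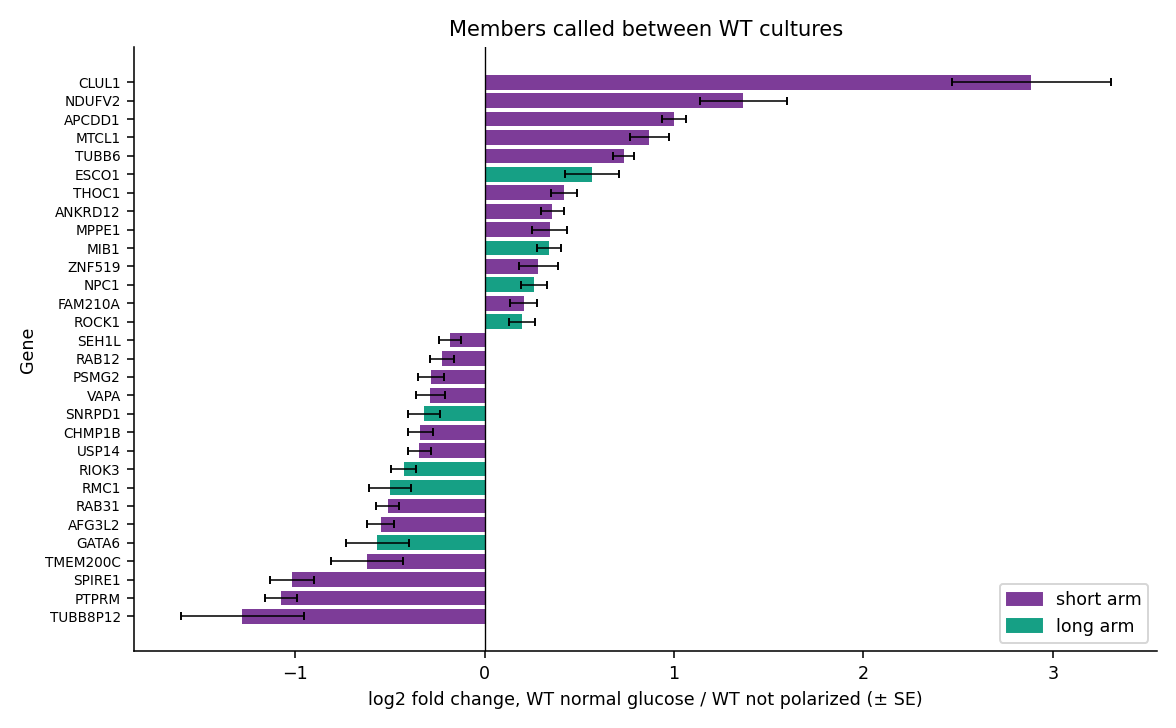
Log2 fold change with its standard error, WT cells in normal glucose over WT cells not polarized, of 30 of the 31 members called between these cultures, by arm. The bars run from -1.28 for TUBB8P12 to 2.89 for CLUL1, and both arms appear on both sides of 0.

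Genes that act with the members but lie on other chromosomes were not used to choose the interval, so they were tested. Of 94 such partners, subunits of the same complex or paralogs, 5 were higher and 7 lower in CF than in WT cells in high glucose, beside 19.9% of all genes called, and 7 were higher and 8 lower in normal glucose, beside 24.4%. Their median log2 fold changes were -0.0040 and 0.014. With the replicate block, 20 were called in high glucose, beside 28.1% of all genes in that fit, and 26 in normal glucose, beside 33.2%.

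The other subunits of the kinetochore complex of NDC80 were not called. NUF2 averaged 88.4 ± 17.8 CPM in CF and 88.8 ± 21.7 CPM in WT cells in high glucose (SD, n = 6 and 5), SPC25 had a log2 fold change of -0.16 ± 0.14 and SPC24 of 0.00 ± 0.11 there, with adjusted p of 0.997, 0.51 and 0.993; a p that misses the threshold does not show equal levels. VAPB, the paralog of VAPA, had 0.07 ± 0.05 in high and 0.08 ± 0.05 in normal glucose (adjusted p = 0.442 and 0.305). Whether a member and its partner differed in their change was not tested.

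Some partners did change between the lines. ESCO2 (chr8:27771949-27812640), the S phase paralog of ESCO1, fell to 43.0 ± 5.42 CPM in CF cells, against 89.9 ± 12 CPM in WT cells in high glucose (SD, n = 6 and 5), with log2 fold changes of -1.06 ± 0.11 in high and -0.96 ± 0.11 in normal glucose (adjusted p = 4.65e-08 and 1.14e-07). MYL9, the third regulatory light chain beside MYL12A and MYL12B, fell as well, at -0.48 ± 0.07 and -0.44 ± 0.07 (adjusted p = 1.74e-05 and 2.71e-05). FYN, a kinase of the family of YES1, fell, at -0.72 ± 0.10 and -0.69 ± 0.10 (adjusted p = 5.98e-06 and 7.02e-06). SPIRE2, the paralog of SPIRE1, rose in CF cells, by 0.41 ± 0.10 and 0.48 ± 0.09 (adjusted p = 0.00244 and 2.07e-04).

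MRE11, the nuclease that works with RBBP8 in DNA end resection, rose to 239 ± 14.6 CPM in CF cells, against 176 ± 8.91 CPM in WT cells in high glucose (SD, n = 6 and 5), and its log2 fold changes were 0.44 ± 0.07 and 0.49 ± 0.06 (adjusted p = 1.66e-05 and 1.44e-06). NPC2, which hands cholesterol to NPC1, rose by 0.27 ± 0.07 and 0.43 ± 0.07 (adjusted p = 0.00967 and 4.11e-05), and within libraries 1 to 3 its high glucose call was lost (adjusted p = 0.170), as was that of SPIRE2 (adjusted p = 0.0870). NDUFV1 (chr11:67605653-67612554), the partner subunit of NDUFV2, rose by 0.26 ± 0.05 and 0.20 ± 0.05 (adjusted p = 4.84e-04 and 0.00305). Whether the change of a partner goes with its member or with the genes around the partner was not tested. The kinase ROCK2, paralog of ROCK1, fell in high glucose, at -0.25 ± 0.06 (adjusted p = 0.00502), and was at -0.14 ± 0.06 in normal glucose (adjusted p = 0.102).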

How the data were processed

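Poly(A) RNA of 26 libraries was sequenced. The table of gene counts and the table of FPKM values are as deposited by the authors; alignment with HISAT2 to hg38 is given by the submitters' processing notes, and neither its version nor the counting tool, its strand setting or the annotation release is stated in any source at hand. CPM were computed here from the counts with edgeR's TMM factors. In edgeR 4.0.16 (R 4.3.3), filterByExpr, glmQLFit (robust) and glmQLFTest were run on all genes of the 23 libraries of the CF and WT high and normal glucose groups (19 residual degrees of freedom), and on the 9 WT libraries in normal glucose or not polarized in a fit of their own; p-values were adjusted by Benjamini-Hochberg over all genes tested. The scripts were tested on simulated data. A member that is counted in the totals is not reported by name here. Gene names are those of the table, coordinates are on hg38, and shared 50-base windows were counted in GENCODE transcripts.

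Members, gene lists and partner genes were chosen with earlier results of these data known. Genes named are, among members, the 8 lowest averages of both CF against WT log2 fold changes among those reaching an average of 1 CPM in some group, those at or above 0 at both glucose levels, up to 8 called with the lowest p by glucose in each line, those called for the interaction, up to 4 in each direction between WT cultures, the 5 on each side of the interval's end and 20 well known members; among partners, the 3 lowest p in each direction. EMILIN2, MIB1, GREB1L, TMEM241, ESCO1, TUBB6, LDLRAD4, ARHGAP28, ROCK2, VAPB, the NDC80 partners and the other short arm members given by log2 fold change alone were named after their values were seen.

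The labels number libraries within groups. The deviations of same-numbered libraries correlated at a mean r of 0.377 between glucose levels in CF and 0.358 in WT, 0.331 between lines in high and 0.262 in normal glucose, with every pair over 0.1 except in WT between glucose levels (4 of 5 pairs), and at -0.0138 between WT cultures. Differently numbered libraries within a set correlated as much (0.360, 0.348, 0.338 and 0.264), so the sets 1 to 3 and 4 to 6 carry the likeness. The replicate block, a term for the set and each set alone were run as alternatives, with DESeq2 1.42.0, RLE factors, other filters, limma 3.58.1 on log2(FPKM + 1) and log2(FPKM + 0.1), and leaving out each library.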

Additional observations from a re-analysis of the deposited data

Results flagged for a closer look

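In groups of 4 to 10 libraries, 8 of 172 tests of a member's CPM found a library at one end that stood far from the others by Dixon's criterion; chance alone flags about 1 in 20 such groups. CLUL1 was at 0.834 CPM in CF high glucose library 2, the others being at 1.21 to 1.42. ENOSF1 was at 62.3 CPM in CF normal glucose library 3, the others being at 85.1 to 93.3. SPIRE1 was at 15 CPM in CF normal glucose library 6, with 10.2 to 11.9 in the rest. FAM210A was at 107 CPM in WT normal glucose library 2 and 88.5 to 92.2 elsewhere in that group. CABLES1 was low in WT normal glucose library 1, at 19.5 CPM (others 21.7 to 22.9), and high in WT high glucose library 4, at 22.4 CPM (others 18.1 to 19.3). RMC1 was at 16.0 CPM in WT high glucose library 4 and 17.5 to 18.1 in its other libraries. CABYR was at 1.37 CPM in WT normal glucose library 1, against 0.839 to 1.02 in the others.

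The response of APCDD1 to glucose differed between the lines in a test of the difference itself, by 0.467 on the log2 scale, CF minus WT (adjusted p = 0.0176 by edgeR's quasi-likelihood test).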

How the results depend on the processing

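Counts of members called lower in CF, the medians of the short arm and the absence of short arm members at or above 0 at both glucose levels kept their direction under every alternative run; the causes of the changes below were not tested unless fewer genes or libraries explain them. The replicate block called 16 members for glucose in CF, 5 in WT, and 20 and 26 partners in high and normal glucose. Calls over all genes rose as well, to 2561 and 1092 of 16338 for glucose in CF and WT. A term for the number set called 17, 6, 22 and 28, beside 2812 and 1418 of 16338 genes for glucose in CF and WT. For the partners under that term the share of all genes is not given here. Libraries 4 to 6 alone called 4 members for glucose in WT and 4 for the difference between lines. Calls over all genes rose as well in that fit, to 823 and 387 of 16874, from 484 and 6 of 16338. It called 27 and 25 partners in high and normal glucose, for which the share of all genes is not given here. It left 4 members at or above 0. The medians were -0.58 (short arm, high glucose), -0.55 (short arm, normal glucose), -0.48 (all members, normal glucose) and -0.00959 (long arm, normal glucose, reversed). Libraries 1 to 3 called 0 for the difference between lines. For glucose in WT, DESeq2 called 4, and 0 were called without a low-count filter, on unfiltered FPKM and with both groups fitted alone; the difference between lines had 0 calls without that filter. On log2(FPKM + 1) the medians were -0.38 (members, high), -0.31 (members, normal) and -0.47 (short arm, high), and without a filter -0.32, -0.27, -0.42 and, for the short arm in normal glucose, -0.40. The long arm median in high glucose reversed to 0.00945 on log2(FPKM + 1) and 0.022 on log2(FPKM + 0.1). With the not polarized libraries as WT, the normal glucose medians were -0.55 (short arm) and -0.053 (long arm, reversed). The 15 members with no overlap on the opposite strand gave 2 glucose calls in CF, 0 in WT, 7 between WT cultures, 10 and 9 lower in CF in high and normal glucose, 2 at or above 0, and medians of -0.60 (short arm, high) and -0.30 (all, normal). Without each library in turn, glucose called 8 to 12 members in CF and 0 to 2 in WT, the difference between lines 0 to 1, WT cultures 27 to 32, partners 10 to 12 in high and 12 to 15 in normal glucose, lower in CF 41 to 44 in high and 40 to 42 in normal glucose, and 5 to 8 members were at or above 0 (5 without WT high glucose library 5). The medians ran from -0.483 to -0.456 (members, high), -0.443 to -0.386 (members, normal), -0.551 to -0.512 and -0.476 to -0.440 (short arm), -0.060 to 0.024 (long arm, high, reversed without WT library 3) and -0.00022 to 0.0996 (long arm, normal, reversed without CF library 3). The median of all genes moved by over 0.1 only between WT cultures without a low-count filter, to 0.13.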

Other observations

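The short arm carries 29 genes of other biotypes, such as long non-coding RNAs and pseudogenes, with at least 10 counts in at least 3 libraries, of which 26 could be fitted. Of these, 23 in high glucose and 21 in normal glucose had a CF level below WT, with median log2 fold changes of -0.58 and -0.66. By edgeR's quasi-likelihood test with Benjamini-Hochberg adjustment 11 and 13 were lower and 0 higher, beside 10.6% and 13.0% of all genes called lower; this contrast was used to choose the interval, so nothing is read from these counts. High glucose called 0 of the 26 in either line.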
